A study of Mus musculus with 6 samples.

Results

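The glycolytic enzymes that act after hexokinase were followed in sorted long-term hematopoietic stem cells, the rare bone marrow cells that can rebuild the whole blood system. They were chosen by symbol: of 10 listed genes (Gpi1, Pfkl, Pfkp, Aldoa, Tpi1, Gapdh, Pgk1, Eno1, Pkm and Ldha), 9 had a row in the count table of 11779 genes, and Gpi1 is not analysed here. The cells came from the marrow of female mice aged 8 weeks. In the HET group (3 libraries) the genotype was c-Mycfl/+Mx1Cre, with 1 floxed allele of Myc and a Cre recombinase driven by the interferon-responsive Mx1 promoter. The WT group (3 libraries) was c-Mycfl/+ and so carried the floxed allele too, without Cre. Cre was induced by 3 injections of 6 mg/kg poly(I:C), a double-stranded RNA analog given every other day. Whether WT mice received it too is not stated separately. The presence of Cre and the loss of 1 Myc allele cannot be told apart in this design, nor can poly(I:C) if only HET mice received it. The sorted gate was Lin-Sca1+c-Kit+CD48-CD150+. The libraries are numbered 1, 3 and 4 in each group, and the HET libraries carry KO in their titles, while their genotype is that of a heterozygote. Nothing in the labels ties a library to 1 mouse, so p-values measure the spread between libraries.

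Glycolysis turns glucose into pyruvate in the cytosol, and lactate dehydrogenase can turn that pyruvate into lactate, which restores the NAD+ that the pathway consumes. Most of the genes are classic targets of the transcription factors MYC and HIF-1 in growing and in hypoxic cells. Long-term blood stem cells are known for relying on glycolysis while quiescent in the marrow.

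Total counts were 4627452 to 9886223 in HET and 4249490 to 5600856 in WT, with HET 1 the deepest library. All 10 stem cell markers on the marker list were detected, with summed levels of 2897 to 3434 CPM in HET and 2940 to 3367 CPM in WT. CPM here is the usual depth-scaled count, on library totals adjusted by TMM, a between-library normalization. Lymphoid markers had rows for 3 of 8 genes, summing to at most 4.21 CPM in any library, and the erythroid markers (4 of 7) summed to 15.7 to 31.2 CPM in HET and 16.8 to 43.5 CPM in WT. The 10 neutrophil and monocyte markers summed to 604.7, 353.3 and 374.5 CPM in HET 1, 3 and 4. In WT 1, 3 and 4 they summed to 463.5, 769.8 and 275.0 CPM. WT 3 had the highest of these sums and also the highest enzyme sum given below (1912.7 CPM). WT 4 had the lowest of them, with an enzyme sum of 1796.3 CPM. Cd48, which the gate sorts against, measured 3.67, 8.29 and 8.96 CPM in HET 1, 3 and 4, and 3.25, 2.74 and 1.67 CPM in WT 1, 3 and 4, without overlap. No overlap was found in 10.3% of all genes tested, and Cd48 had an edgeR adjusted p of 0.849. The other genes on its progenitor list overlapped, with log2 fold changes (HET over WT) of 0.065 for Cd34 and -0.052 for Flt3. Summed, that list measured 333.6, 305.7 and 305.4 CPM in HET 1, 3 and 4, and 337.9, 299.5 and 264.2 CPM in WT 1, 3 and 4. The 6 megakaryocyte markers summed to 1097, 899.6 and 927.6 CPM in HET 1, 3 and 4, and 768.9, 753.6 and 764.8 CPM in WT 1, 3 and 4, so these sums did not overlap between the groups. All 6 markers had positive log2 fold changes (HET over WT), but only 1, Itga2b, had no overlap by itself. It measured 560.5, 364.0 and 390.5 CPM in HET 1, 3 and 4, and 316.3, 288.5 and 263.3 CPM in WT 1, 3 and 4. With edgeR, 0 of the 6 passed an adjusted p of 0.05. The 12 cell cycle markers summed to 1110 to 2084 CPM in HET and 1273 to 1651 CPM in WT, highest in HET 1. The part of these levels in the enzyme results was not tested. Myc itself measured 293.8, 386.7 and 372.0 CPM in HET 1, 3 and 4, and 447.4, 427.4 and 541.8 CPM in WT 1, 3 and 4. Its log2 fold change was -0.43 ± 0.12 (SE), with an edgeR quasi-likelihood p of 0.00235 before adjustment and 0.312 after Benjamini-Hochberg adjustment over all 10869 genes tested.

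None of the 9 enzyme genes passed the test between HET and WT. Of the 9, 7 had a negative and 2 a positive log2 fold change (HET over WT). With edgeR, 0 had an adjusted p under 0.05 and 0 an unadjusted p under 0.05, and with DESeq2 and limma-voom the same counts were 0. Over all genes tested, 28 (0.258%) passed the adjusted threshold, 0.0368% being higher and 0.221% lower in HET, and 567 (5.22%) passed the unadjusted one. A negative fold change was found in 49.3% of all genes tested. The median log2 fold change of the 9 was -0.11, beside 0.0040 over all genes tested. The summed level of the 9 was 1788.7, 1694.5 and 1525.4 CPM in HET 1, 3 and 4, against 1590.5, 1912.7 and 1796.3 CPM in WT 1, 3 and 4. The 2 ranges overlapped, with means of 1670 ± 133 CPM in HET and 1766 ± 163 CPM in WT (SD, n = 3 each). In bulk libraries, fewer cells of a type and less RNA per cell cannot be told apart.

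**Figure D1:**
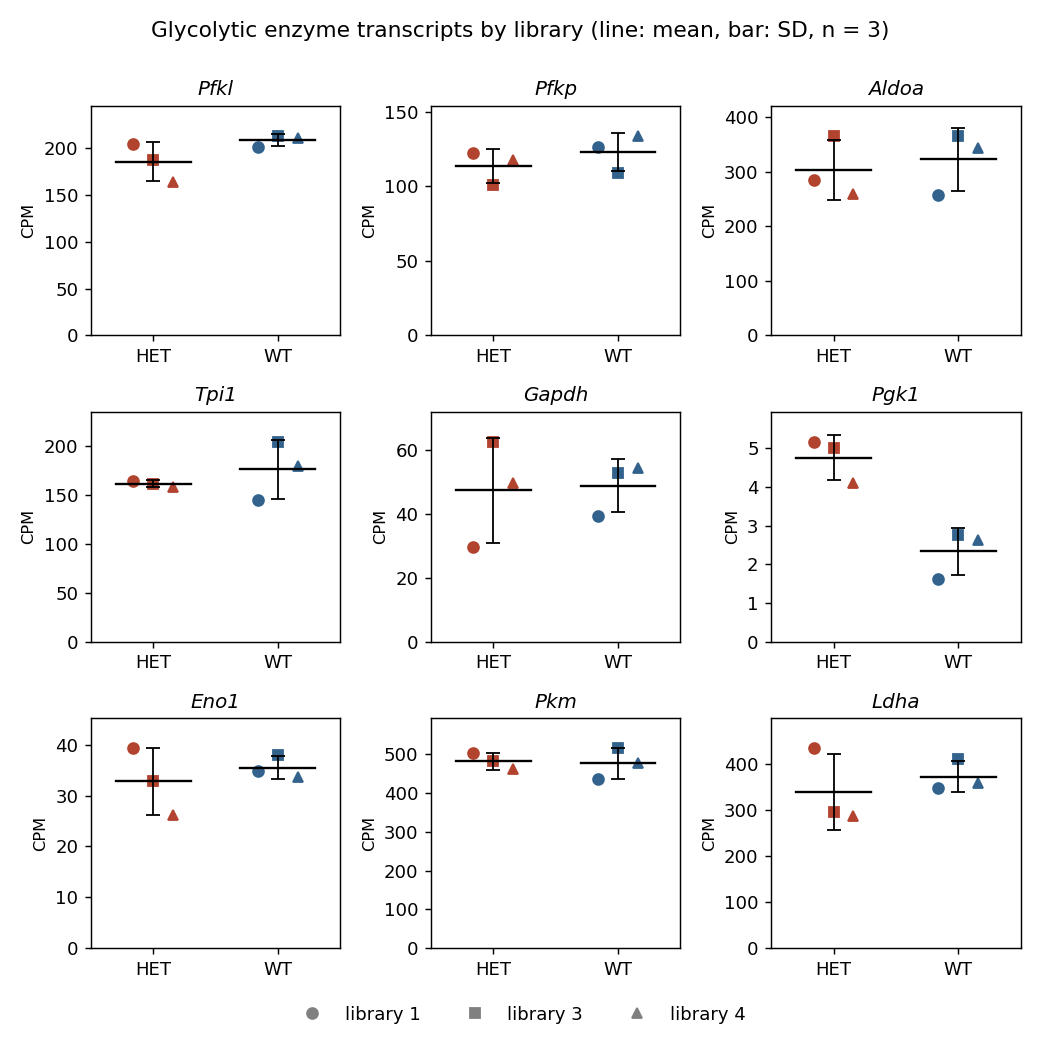
Levels in CPM of the 9 glycolytic enzyme genes, with each point 1 library (symbol: library number), HET left of WT, the line at the group mean and the bar its SD (n = 3 each). The groups overlap in every panel except that of Pgk1, where the HET libraries sit between 4.09 and 5.16 CPM and the WT libraries between 1.62 and 2.74 CPM.

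How much of each gene's sequence is its own bears on these counts, since glycolytic genes left many processed pseudogenes in the mouse genome. How reads matching several genes were counted is not stated in the labels. The principal protein-coding transcript of each gene (GENCODE M21, GRCm38) was therefore compared, in windows of 50 bases, with the transcripts of all other annotated genes on both strands. For Gapdh, 82.5% of the windows also occurred in another gene, spread over 222 genes of which 215 are annotated as pseudogenes. For Eno1 the share was 72.2% and for Pgk1 68.0%. In the other 6 genes it was between 0.0543% (Pfkl) and 34.4% (Pkm), with 7.51% for Tpi1, 13.9% for Aldoa and 17.1% for both Pfkp and Ldha. With windows of 100 bases the shares were 78.0% for Gapdh, 59.0% for Eno1 and 67.0% for Pgk1. Among the other 6 genes Pfkp had the highest share at this length, 16%, little changed from its 17.1%. The shares of Pkm, Ldha and Aldoa at 100 bases were 9.82%, 1.32% and 0%. The levels of Gapdh, Eno1 and Pgk1 are therefore uncertain, and unannotated copies or copies with mismatches are not in these shares.

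The coding window shared by the most genes shows how close the copies are, and is given for Gapdh and Eno1 with the shared 50 bases in capitals and 15 flanking bases on each side. The Gapdh window (transcript bases 640 to 719; chromosome 6) was found in 84 other genes and that of Eno1 (828 to 907; chromosome 4) in 5. The sequences are those of GENCODE M21 transcripts, 5′ to 3′ on the coding strand.
Gapdh: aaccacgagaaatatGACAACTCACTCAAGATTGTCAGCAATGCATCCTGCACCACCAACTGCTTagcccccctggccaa
Eno1: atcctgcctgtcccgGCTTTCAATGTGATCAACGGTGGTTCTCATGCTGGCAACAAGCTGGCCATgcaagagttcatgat

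**Figure D2:**
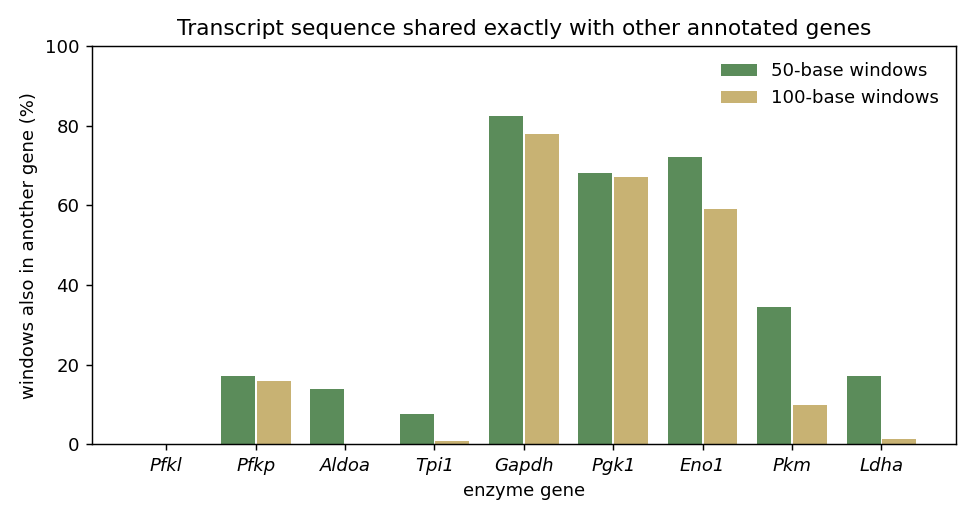
Percentage of 50-base and 100-base windows of each gene's principal transcript that also occur, exactly and on either strand, in a transcript of another GENCODE M21 gene. Gapdh, Pgk1 and Eno1 lie between 59.0% and 82.5% at both lengths, and the other 6 genes at or below 34.4%.

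Phosphofructokinase 1 commits fructose 6-phosphate to glycolysis and is a main control point of the pathway. Its liver-type subunit gene Pfkl (ENSMUSG00000020277; GRCm38 chromosome 10, 77986947 to 78010083, minus strand) measured 204.9, 188.0 and 163.5 CPM in HET 1, 3 and 4, against 201.3, 213.5 and 211.1 CPM in WT 1, 3 and 4. HET 3 and HET 4 lay below every WT library, and HET 1 lay above WT 1. The log2 fold change was -0.17 ± 0.12 (SE; edgeR adjusted p = 0.995), equal to a level 11% lower, with a 95% interval from 25.3% lower to 5.98% higher. The platelet-type subunit gene Pfkp (ENSMUSG00000021196; chromosome 13, 6579768 to 6648777, minus strand) measured 122.1, 100.8 and 117.7 CPM in HET 1, 3 and 4, against 126.5, 108.9 and 134.0 CPM in WT 1, 3 and 4. These ranges overlapped, and the log2 fold change was -0.11 ± 0.14 (SE; edgeR adjusted p = 0.995).

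Aldolase splits fructose 1,6-bisphosphate into 2 triose phosphates, and triosephosphate isomerase interconverts them. Aldoa (ENSMUSG00000030695; chromosome 7, 126795234 to 126800751, minus strand) measured 285.2, 365.9 and 259.2 CPM in HET 1, 3 and 4, against 257.1, 366.4 and 344.6 CPM in WT 1, 3 and 4. The lowest and the highest of the 6 values were both WT libraries, and the log2 fold change was -0.089 ± 0.15 (SE; edgeR adjusted p = 0.995). Tpi1 (ENSMUSG00000023456; chromosome 6, 124810586 to 124814296, minus strand) measured 164.6, 161.6 and 157.6 CPM in HET 1, 3 and 4, against 144.7, 204.0 and 179.3 CPM in WT 1, 3 and 4. The HET libraries lay inside the WT range, and the log2 fold change was -0.13 ± 0.13 (SE; edgeR adjusted p = 0.995).

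Gapdh, whose enzyme produces the NADH that lactate dehydrogenase later oxidizes, is in wide use as a reference gene for normalizing expression. It (ENSMUSG00000057666; chromosome 6, 125161715 to 125166467, minus strand) had 300, 287 and 256 counts in HET 1, 3 and 4, and 218, 289 and 228 counts in WT 1, 3 and 4. Scaled, these were 29.8, 62.6 and 49.9 CPM in HET, against 39.3, 52.9 and 54.4 CPM in WT. HET 1 was the lowest and HET 3 the highest of the 6 libraries. The log2 fold change was -0.054 ± 0.24 (SE; edgeR adjusted p = 0.995), and without HET 1 it was 0.20 ± 0.21 (SE; adjusted p = 0.889).

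Phosphoglycerate kinase 1 makes the first ATP that the pathway gains. Pgk1 (ENSMUSG00000062070; chromosome X, 106187100 to 106203699, plus strand) had 52, 23 and 21 counts in HET 1, 3 and 4, and 9, 15 and 11 counts in WT 1, 3 and 4. At 5.16, 5.02 and 4.09 CPM in HET, against 1.62, 2.74 and 2.62 CPM in WT, the groups did not overlap. It was the 1 gene of 9 without overlap. Of all genes tested, 10.3% had no overlap, 4.69% with HET higher and 5.64% with HET lower. The log2 fold change was 1.03 ± 0.64 (SE; 95% interval -0.29 to 2.35; edgeR adjusted p = 0.993). Pooled over libraries and scaled for size, 96 HET counts against 35 WT counts gave a ratio of 2.11, with an exact 95% interval of 1.42 to 3.20 that covers counting error only. By the same measure the intervals of Pfkl (0.871 to 0.958), Aldoa (0.892 to 0.963), Tpi1 (0.877 to 0.972) and Gapdh (0.797 to 0.974) lay below 1. All such intervals leave out the spread between libraries of a group, which was larger than counting error, so they are too narrow for a group difference. In edgeR each of these genes had an adjusted p of 0.995. With 3 libraries a group, an exact permutation test (two-sided) cannot go below p = 0.1, which is the value for Pgk1. These are small counts for a transcript with 68.0% of its windows shared.

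Enolase makes phosphoenolpyruvate, and Eno1 encodes the form used by most tissues. Eno1 (ENSMUSG00000063524; chromosome 4, 150236721 to 150248879, plus strand) measured 39.3, 32.9 and 26.1 CPM in HET 1, 3 and 4, against 34.8, 38.1 and 33.6 CPM in WT 1, 3 and 4. HET 1 was the highest and HET 4 the lowest of the 6 libraries. The log2 fold change was -0.11 ± 0.22 (SE; edgeR adjusted p = 0.995).

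Pyruvate kinase makes pyruvate and the last ATP of the pathway. Pkm (ENSMUSG00000032294; chromosome 9, 59656368 to 59679375, plus strand) has M1 and M2 splice forms, which counts per gene do not separate. It measured 503.2, 481.3 and 460.7 CPM in HET 1, 3 and 4, against 435.7, 515.0 and 478.2 CPM in WT 1, 3 and 4. All HET values lay inside the WT range, and the log2 fold change was 0.017 ± 0.10 (SE; edgeR adjusted p = 0.997), with a 95% interval from 13.0% lower to 17.6% higher. Pkm was also the steadiest of the 9: its highest library was 1.18 times its lowest, a ratio undercut by 4.44% of all genes tested. The same ratio was 2.10 for Gapdh and 3.18 for Pgk1, and 1.61 was the median over all genes tested. Pkm also had the highest CPM of the 9 in every library and Pgk1 the lowest. The ratios were not compared among genes of like level.

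Lactate dehydrogenase A favours the conversion of pyruvate to lactate. Ldha (ENSMUSG00000063229; chromosome 7, 46841475 to 46855627, plus strand) measured 434.6, 296.4 and 286.6 CPM in HET 1, 3 and 4, against 349.5, 411.3 and 358.4 CPM in WT 1, 3 and 4. HET 1 was the highest of the 6 libraries while HET 3 and HET 4 were the lowest. The log2 fold change was -0.14 ± 0.14 (SE; edgeR adjusted p = 0.995). Without HET 1 it was -0.36 ± 0.11 (SE; unadjusted p = 0.00411), and its edgeR adjusted p of 0.252 did not pass. Leaving out 1 library at a time gave values from -0.36 to -0.021, the fit without HET 1 being the lowest. In that fit the calls over all genes rose from 28 to 68. HET 1 was at the opposite end for Gapdh, so that the Ldha to Gapdh ratio of CPM was 14.6, 4.74 and 5.75 in HET 1, 3 and 4, against 8.88, 7.78 and 6.59 in WT 1, 3 and 4. HET 1 was also the deepest library, with the lowest stem cell marker sum (2897 CPM) and the highest megakaryocyte and cell cycle marker sums. The part of these in its Ldha and Gapdh levels was not tested.

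**Figure D3:**
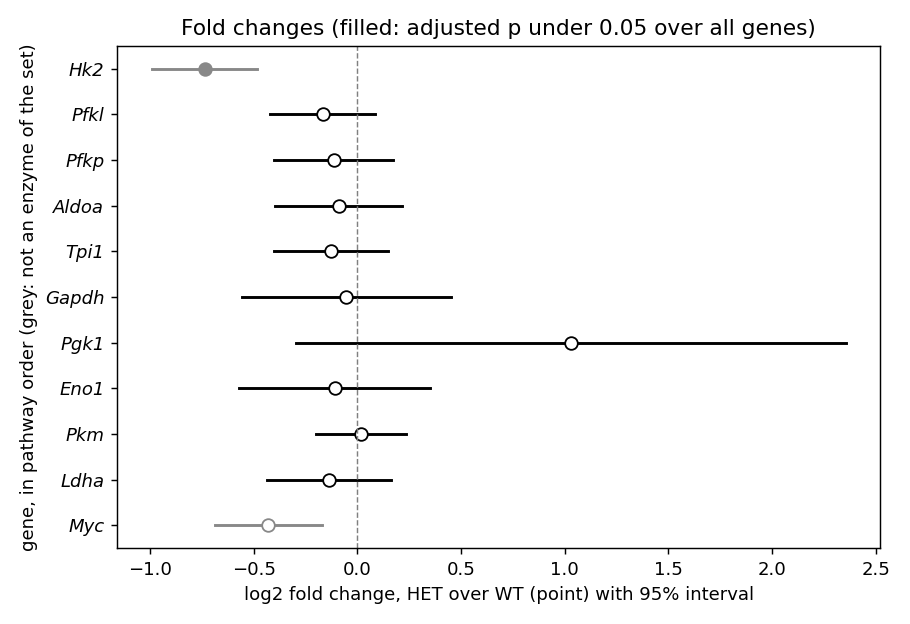
Log2 fold change of HET over WT with its 95% interval from the edgeR fit, in pathway order, with Hk2 and Myc in grey for comparison. The intervals of all 9 enzyme genes include 0, that of Pgk1 being the widest at -0.29 to 2.35, while the interval of Hk2 lies below 0.

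The precision of the 6 genes with mostly unshared sequence (Pfkl, Pfkp, Aldoa, Tpi1, Pkm and Ldha) sets what the comparison could show. Their standard errors were 0.10 to 0.15 on the log2 scale. The lower ends of their 95% intervals lay between 26.0% and 13.0% below WT, and the upper ends between 5.98% and 17.6% above it. The comparison does not exclude differences of a size within these intervals. Of the 6, 5 had negative fold changes.

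The promoters were read for the motif that MYC-MAX dimers bind, the E-box CACGTG, and for ACGTG, a form of the HIF-1 response element core. Other forms of that core were not searched. Windows of 250 bases before and 50 after a start site were available for all 10 listed genes (16 windows; RefSeq, GRCm38.p6), and both strands were searched. CACGTG occurred in 1 of the 16 windows (6.25%), which belongs to Ldha, and in 7.15% of 32851 promoter windows of all genes. ACGTG, which every CACGTG contains, occurred in 6 of the 16 windows (37.5%), from 5 genes and partly overlapping each other, and in 19.6% of all windows. The Ldha promoter carried 2 E-boxes, which start 145 and 48 bases before the start site, and 1 further ACGTG core outside them. The Pgk1 promoter carried 2 ACGTG cores, starting 150 and 131 bases before the start site, and no CACGTG. These 2 are shown because Ldha was the gene with an E-box and Pgk1 the gene whose groups did not overlap. Each line gives the 250 bases before the start site, on the plus strand, with CACGTG in capitals for Ldha (chr7:46845554-46845803) and ACGTG of either strand in capitals for Pgk1 (chrX:106186850-106187099). A motif is a string match and does not show binding.
Ldha: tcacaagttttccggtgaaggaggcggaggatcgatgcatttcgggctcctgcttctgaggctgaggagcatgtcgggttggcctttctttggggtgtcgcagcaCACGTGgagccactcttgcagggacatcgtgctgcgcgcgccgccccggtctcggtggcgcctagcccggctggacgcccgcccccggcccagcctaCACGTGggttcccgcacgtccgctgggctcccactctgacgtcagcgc
Pgk1: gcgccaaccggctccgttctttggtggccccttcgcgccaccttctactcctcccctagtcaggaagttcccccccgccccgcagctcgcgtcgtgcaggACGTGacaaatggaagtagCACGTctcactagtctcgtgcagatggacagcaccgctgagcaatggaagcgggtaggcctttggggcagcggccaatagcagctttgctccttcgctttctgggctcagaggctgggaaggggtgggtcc

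Levels were compared between genes as CPM per kb of principal transcript. Aldoa, Ldha and Pkm were highest and could not be ordered, with 201 ± 36.8, 192 ± 46.8 and 198 ± 8.75 CPM per kb in HET, against 214 ± 38.3, 211 ± 18.9 and 196 ± 16.3 CPM per kb in WT (SD, n = 3 each). Tpi1 followed at 100 ± 2.16 CPM per kb in HET and 109 ± 18.5 CPM per kb in WT, and did not overlap its neighbours in any library. Pfkl stood at 49.7 ± 5.59 CPM per kb in HET and 55.9 ± 1.72 CPM per kb in WT. Gapdh had 33.4 ± 11.7 CPM per kb in HET and 34.4 ± 5.84 CPM per kb in WT, and Pfkp 27.4 ± 2.72 CPM per kb in HET and 29.7 ± 3.12 CPM per kb in WT. The library values of Gapdh overlapped those of Pfkp and, at 44.1 against 43.8 CPM per kb, reached the lowest of Pfkl. Eno1 had 16.2 ± 3.25 CPM per kb in HET and 17.5 ± 1.13 CPM per kb in WT, and Pgk1 2.61 ± 0.32 CPM per kb in HET and 1.28 ± 0.34 CPM per kb in WT. Levels were also divided by the number of 50-base windows not shared with another gene, as means over all 6 libraries. That scale applies only if reads from shared windows were left uncounted, which the labels do not state. On that scale Pkm had 306.5 CPM per kb, Ldha 250.3 CPM per kb and Aldoa 248.7 CPM per kb. Gapdh followed with 201 CPM per kb, above Tpi1 with 117 CPM per kb. Eno1, with 62.1 CPM per kb, stood above Pfkl (53.6 CPM per kb) and Pfkp (34.8 CPM per kb), and Pgk1 was last with 6.23 CPM per kb. The phosphoglycerate mutase gene Pgam1, the step between Pgk1 and Eno1, had 13, 1 and 0 counts in HET 1, 3 and 4, and 7, 1 and 1 counts in WT 1, 3 and 4, with 41.5% of its windows shared, and was too low to be tested.

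The make-up of each isoenzyme family was compared as a share of its summed CPM per kb. Pfkl held 44.8%, 41.7% and 37.9% of the phosphofructokinase level in HET 1, 3 and 4, against 43.0%, 48.8% and 43.3% in WT 1, 3 and 4. The muscle-type gene Pfkm held 31.2%, 38.2% and 37.6% in HET 1, 3 and 4, against 32.6%, 28.8% and 32.0% in WT 1, 3 and 4, a difference of 4.52 percentage points with overlapping libraries. The order of Pfkl and Pfkm depends on the length used. As means over all 6 libraries they had 52.8 and 40.7 CPM per kb of principal transcript. Per kb of all exonic sequence they had 29.5 and 35.1 CPM. Aldoa held 97.0% ± 0.055 of the aldolase level in HET and 96.1% ± 1.19 in WT (SD, n = 3 each), the rest being Aldoc. Ldha held 85.1%, 75.8% and 75.0% of the sum of Ldha and Ldhb in HET 1, 3 and 4, against 79.8%, 83.2% and 76.8% in WT 1, 3 and 4. Over the 5 shares compared, the two-sided exact permutation tests gave p from 0.3 to 0.8 and Benjamini-Hochberg adjusted values from 0.667 to 0.8, where 0.1 is the smallest p possible. Ldhb, which favours the reverse reaction, has 27.0% of its windows shared with a pseudogene, so its part is less certain.

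**Figure D4:**
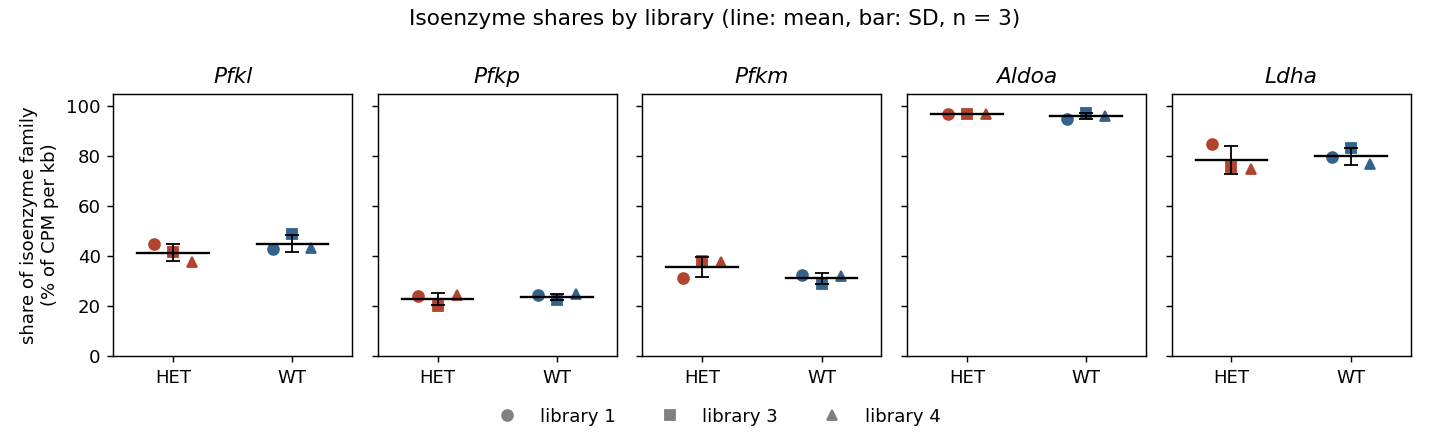
Share of each gene in its isoenzyme family (percent of summed CPM per kb of principal transcript), each point 1 library, with mean and SD (n = 3 each), HET left of WT. The groups overlap in all 5 panels, with Aldoa at or above 94.9% and Ldha between 75.0% and 85.1%.

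Genes around these steps were read in 7 lists of 100 genes in all, of which 86 were in the table and 84 were tested. Only Hk2 passed, and the medians of the lists ran from -0.16 to 0.080 log2 units. Among the 7 tested genes of glucose uptake and phosphorylation (median 0.043), Hk2, the inducible hexokinase, measured 154.1, 140.7 and 170.5 CPM in HET 1, 3 and 4, against 280.0, 259.8 and 235.6 CPM in WT 1, 3 and 4. In HET it fell by 0.74 ± 0.12 log2 units (SE; adjusted p = 0.00531 in edgeR), a call lost without WT 1 (adjusted p = 0.0548). Hk3, a hexokinase of myeloid cells, had a fold change of 0.69 ± 0.21 log2 units (SE; edgeR adjusted p = 0.383) with 48.6, 82.9 and 67.2 CPM in HET 1, 3 and 4, and 35.5, 41.9 and 45.6 CPM in WT 1, 3 and 4, and it passed without HET 1 (0.87; adjusted p = 0.0347). The transporter gene Slc2a1 had -0.31 ± 0.18 (SE; adjusted p = 0.980). The difference between Hk2 and the later enzymes was not tested.

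Of 8 tested isoenzymes and remaining steps (5 negative, median -0.16), 0 passed in edgeR at an adjusted or unadjusted p of 0.05. Their smallest p-values were those of the enolase gene Eno2 (5.40 ± 0.54 CPM in HET and 9.34 ± 2.40 CPM in WT, SD, n = 3 each), the D-lactate dehydrogenase gene Ldhd (log2 fold change -0.50 ± 0.28, SE) and Aldoc (-0.44 ± 0.28, SE). Of 9 regulators of flux (7 positive, median 0.080), 0 passed at either level. Pfkfb3 and Pfkfb4 encode enzymes that set the level of fructose 2,6-bisphosphate, the activator of phosphofructokinase. Pfkfb3 had 93.2, 96.8 and 90.2 CPM in HET 1, 3 and 4, against 76.7, 73.0 and 85.8 CPM in WT 1, 3 and 4. Its groups did not overlap, but its log2 fold change of 0.25 ± 0.15 (SE) had an edgeR adjusted p of 0.980. Pfkfb4 had 0.33 ± 0.27 (SE; adjusted p = 0.995), also without overlap. Tigar, a phosphatase that degrades fructose 2,6-bisphosphate, had 2.58, 1.75 and 7.02 CPM in HET 1, 3 and 4, against 3.25, 9.51 and 7.39 CPM in WT 1, 3 and 4. The groups overlapped, and its difference was -0.84 ± 0.62 log2 units (SE; edgeR adjusted p = 0.995).

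Of 17 genes of pyruvate entry into mitochondria and lactate export (median -0.053), 0 passed and 1 had an unadjusted p under 0.05. This was the lactate exporter gene Slc16a3 (MCT4), with 8.38 ± 1.07 CPM in HET and 4.07 ± 1.59 CPM in WT (SD, n = 3 each). Its difference of 1.05 ± 0.50 log2 units (SE) had an edgeR adjusted p of 0.950. Pdk1, which restrains pyruvate dehydrogenase, had -0.27 ± 0.14 (SE; adjusted p = 0.958). Of 10 pentose phosphate genes (median -0.083), 0 passed at either level, with values between -0.21 for Prps2 and 0.14 for Taldo1. Of 22 genes of side branches (median -0.061), 0 passed and 1, the aspartate aminotransferase gene Got1, had an unadjusted p under 0.05 (-0.70 ± 0.29, SE; edgeR adjusted p = 0.814). Of 11 transcription regulators (median -0.086), 0 passed and Myc alone had an unadjusted p under 0.05. Mycn, a paralog of Myc, measured 271.5, 469.3 and 484.0 CPM in HET 1, 3 and 4, against 249.3, 318.5 and 335.5 CPM in WT 1, 3 and 4. Its log2 fold change was 0.44 ± 0.22 (SE; edgeR adjusted p = 0.979), and without HET 1 it passed (0.66 ± 0.12, SE; adjusted p = 0.00297). Over the 7 lists, 9 of 84 genes (10.7%) had no overlap between groups, beside 10.3% of all genes tested. Of these, 4 were higher in HET (Hk3, Pfkfb3, Pfkfb4 and Slc16a3) and 5 lower (Hk2, Myc, Eno2, Gnpnat1 and Pygl). Hif1a, the oxygen-regulated subunit of HIF-1, measured 72.9 ± 3.31 CPM in HET and 72.0 ± 13.3 CPM in WT (SD, n = 3 each).

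**Figure D5:**
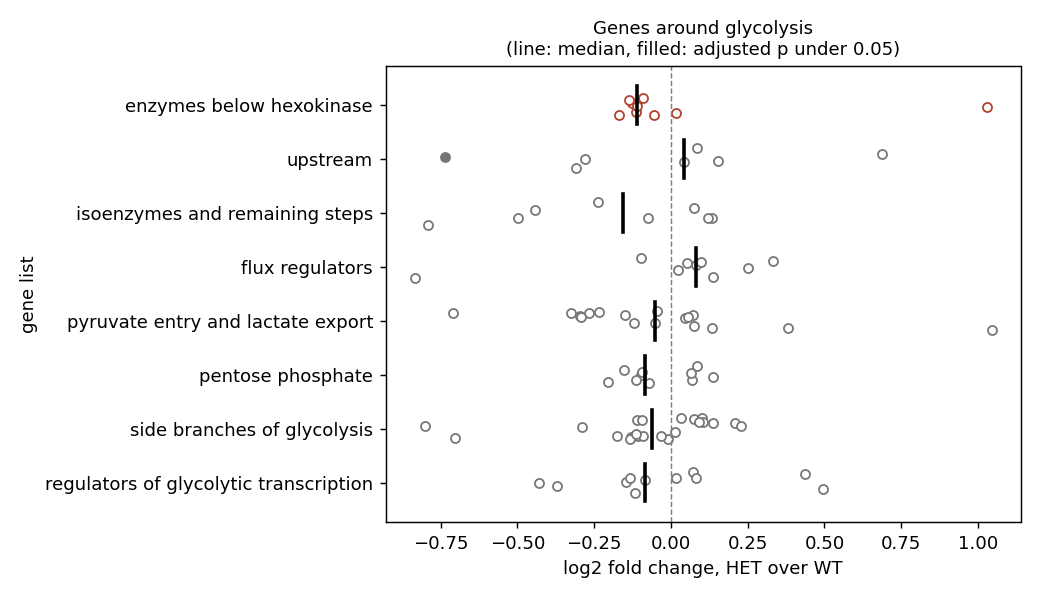
Log2 fold changes of HET over WT for the 9 enzyme genes (top row) and for the tested genes of 7 surrounding lists, 1 point per gene, with the median of each list as a line. Hk2 is the only filled point (edgeR adjusted p = 0.00531), and 8 of the 9 enzyme genes lie between -0.17 and 0.017.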

How the data were processed

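RNA-seq libraries of 6 sorted stem cell samples (3 HET, 3 WT) were grouped by genotype label, with library numbers from the titles. The authors deposited raw counts per gene for each library, as whole numbers. FastQC, STAR 2.5.2b, edgeR, limma and mm10 are named in the submitters' processing notes without role or order. Of the counter, annotation, strand and kit, nothing is given in the sources used here: the protocol fields attached to the samples describe another study. All 6 count columns were used.

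In edgeR 4.0.16 (R 4.3.3), filterByExpr kept 10869 of 11779 genes, sizes were scaled by TMM, and the HET effect was tested with a quasi-likelihood F test (two-sided, robust fit, group as the only term; biological coefficient of variation 20.7%), Benjamini-Hochberg adjusted over all genes tested with a threshold of 0.05. Standard errors and 95% intervals were derived from the F statistic. A count of 3 corresponded to 0.298 to 0.715 CPM. Replicate libraries of a group differed by more than counting noise. Exact permutation tests used log2(CPM + 0.5) for genes. Coordinates, transcript lengths and shared windows came from GENCODE M21 and promoters from RefSeq, both GRCm38. One list gene, Tigar, was matched by its Ensembl ID under an older symbol. The code was tested on simulated counts.

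The members and lists were chosen with earlier results of these data known. Named were all members, Myc, and from each list the genes past the threshold and up to 3 of smallest p. Pgam1, Hif1a, Pfkm, Ldhb, Pygl, the motifs, the shared windows, the isoenzyme shares and the ratio of Ldha to Gapdh were chosen after values were seen. So were the markers named singly (Cd48, Cd34, Flt3 and Itga2b). Alternatives were RLE and upper quartile scaling, no filter, a filter of 5 CPM in 3 libraries, DESeq2 1.42.0, limma-voom (limma 3.58.1), the library number as a block, and leaving out each library. One shared transcript window is not reported here.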

Additional observations from a re-analysis of the deposited data

How the results depend on the processing

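Under all 13 alternatives 0 of the enzyme genes passed an adjusted p of 0.05, the lowest being 0.252 (Ldha without HET 1). Over all genes the count of calls was 28, against 59 with DESeq2 and 49 with the library number as a replicate block, and 10 to 68 when 1 library was omitted (10 without HET 4, 11 without WT 1, 68 without HET 1). The median of the 9 enzyme genes was between -0.18 and -0.0045 in those fits, and -0.12 with Gapdh, Pgk1 and Eno1 left out, an alternative chosen after seeing the data. Directions changed only for 4 genes and only when 1 library was left out. The values ran from -0.30 to 0.20 for Gapdh (positive without HET 1, WT 3 or WT 4), -0.046 to 0.077 for Pkm (negative without HET 1 or WT 1), -0.24 to 0.017 for Aldoa (positive without HET 4 or WT 3) and -0.27 to 0.034 for Eno1 (positive without HET 4). Of the 5 others, Pgk1 ran from 0.82 to 1.17 (no value under the stricter filter, which removed it, and no adjusted p in DESeq2) and Ldha from -0.36 to -0.021. Myc ran from -0.50 to -0.32 without passing. Of the surrounding genes, 0 to 3 passed when 1 library was left out: 0 without WT 1, and Hk2, Hk3 and Mycn without HET 1. Correlations of deviations over 6319 genes were 0.142, -0.0615 and 0.0574 between same-numbered libraries, and -0.225 to 0.204 between libraries of different number. With 3 libraries per group these values cannot decide whether the numbers pair the samples. The block changed no call of an enzyme gene. Counts under 100 in Pgk1 and the 3 libraries per group limit precision.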
